A study of Mus musculus with 3 samples.

Results

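The lysosome is the acidic compartment in which macrophages break down what they engulf, and 55 of its genes are described here in mouse macrophages from heart, liver and kidney. The 55 genes form a list by function, not by measured level: cathepsins and other proteases, glycosidases, sulfatases, enzymes and activators of lipid breakdown, membrane proteins, MiT/TFE transcription factors and subunits of the proton pump. The list was chosen with earlier results of these data known. Each gene was read from the longest coding RefSeq transcript of its symbol. All 55 were found among 24453 gene symbols, and 54 of them, all but Tfeb, were among the 11482 genes that reached 1 RPKM in some library. RPKM counts the reads on each kilobase of exon and scales them to 1000000 reads in a library, so levels of different genes can be compared per length.

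The study sequenced RNA of tissue macrophages in the unchallenged state, with 1 library each for macrophages of the heart, Kupffer cells of the liver and macrophages of the kidney. All 3 groups came from C57BL/6 mice aged 8 weeks, and no other allele or treatment is named for any of them. Cells were sorted by flow cytometry as CD11b+ F4/80+ Ly6G- Ly6C-, and their total RNA was amplified with a kit for very low input before library preparation. How many animals were pooled in a library is not given in the sources used here. There were no replicates, so nothing could be tested against the variation between animals, and each difference describes these 3 libraries.

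Lysosomal enzymes are made as glycoproteins, most of them carry a mannose 6-phosphate tag that receptors use to sort them, and many are cut into their mature form in the lysosome. The vacuolar proton pump, a membrane complex that burns ATP, keeps the lumen acidic, which most of these enzymes need. TFEB, TFE3 and MITF bind a short DNA element found near many lysosomal genes and can raise the transcription of the set together. Macrophages are among the cells richest in lysosomes, and Kupffer cells clear blood-borne particles and old red cells through them.

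The read total recovered from the deposited values was between 14460627 and 16743417 over all transcripts. Reads on exons shared by several transcripts count once for each, so this total is not the sequenced depth. With 1 transcript per gene it was 8751978 in heart, 10373696 in liver and 9485368 in kidney macrophages. All 12 macrophage markers, such as Csf1r, C1qa and Mertk, reached at least 1 RPKM in all 3 libraries, with sums between 1879 and 2331 RPKM. The 8 Kupffer cell markers summed to 198.3 RPKM in heart, 2473 in liver and 12.24 in kidney macrophages. Of these, Clec4f, Cd5l and Marco were at 0 in heart and kidney libraries. Timd4 was at 147.6 RPKM in heart, 339.6 in liver and 0 in kidney macrophages, and Vsig4 at 41.45, 455.2 and 0 RPKM. Adgre1, the F4/80 gene of the sort, lay between 374.6 and 427.4 RPKM, and Ly6g, a gene of the excluded cells, at 0.151 RPKM or less. Itgam, the CD11b gene of the sort, was less even, at 93.72 RPKM in heart, 27.88 in liver and 38 in kidney macrophages. In Itgam, 68.7% of the exon bases lie in exons of other annotated genes, with the largest overlap from Gm49368. Of the genes for Ly6C, the other excluded marker, Ly6c1 lay between 10.09 and 14.54 RPKM and Ly6c2 between 5.581 and 9.742 RPKM. Genes of other cells were present as well. Hepatocyte genes summed to 244.1 RPKM in the liver library (8 of 9 at 1 RPKM or more) and to at most 2.388 elsewhere. Endothelial genes summed to 287.6 RPKM in the same library (7 of 8) and to at most 8.01 elsewhere, with Stab2 and Oit3 at 0 in heart and kidney libraries. Nephron genes, led by Umod and Slc12a1, summed to 290.7 RPKM in the kidney library (5 of 11) and to at most 0.479 elsewhere. Fibroblast genes summed to 151.1 RPKM in the heart library (5 of 6, led by Dcn), 8.461 in liver and 0.775 in kidney macrophages, and dendritic cell genes to 282.7, 12.22 and 25.06 RPKM. Cd209a alone gave 270.1 RPKM of the heart value, while Xcr1 and Clec9a were lowest in the heart library, at 1.073 and 0.126 RPKM, and highest in the kidney library, at 3.108 and 7.243 RPKM. Cardiomyocyte genes summed to 15.93 RPKM in heart, 0.041 in liver and 4.426 in kidney macrophages. B cell genes summed to 35.93 RPKM in heart, 221.9 in liver and 167.7 in kidney macrophages, with most of the kidney value from Cd79b. The part of such cells in the differences below was not tested.

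The 55 genes together took 2.9% of the reads in heart, 2.86% in liver and 2.92% in kidney macrophages, counting 1 transcript per gene. The median level of the 54 that reached 1 RPKM in some library was 101.6 RPKM in heart, 73.0 in liver and 97.4 in kidney macrophages. The median over the 11482 genes compared was 4.28, 5.29 and 5.72 RPKM. At least 100 RPKM was reached by 27 of the 55 in heart (49.1%), 24 in liver (43.6%) and 27 in kidney macrophages (49.1%). Among all genes compared the share was 6.51%, 7.79% and 6.44%. The most abundant of them in the heart library were Lyz2, Ctss, Lamp2, Ctsb and Asah1. In the liver library they were Lyz2, Ctss, Ctsb, Ctsd and Laptm5, and in the kidney library Ctss, Lyz2, Laptm5, Psap and Lgmn. A low end was present too: 5 genes in heart, 3 in liver and 1 in kidney macrophages lay below 1 RPKM. In a bulk library, fewer cells of a type and less RNA per cell cannot be told apart, and neither can be read from these levels.

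**Figure D1:**
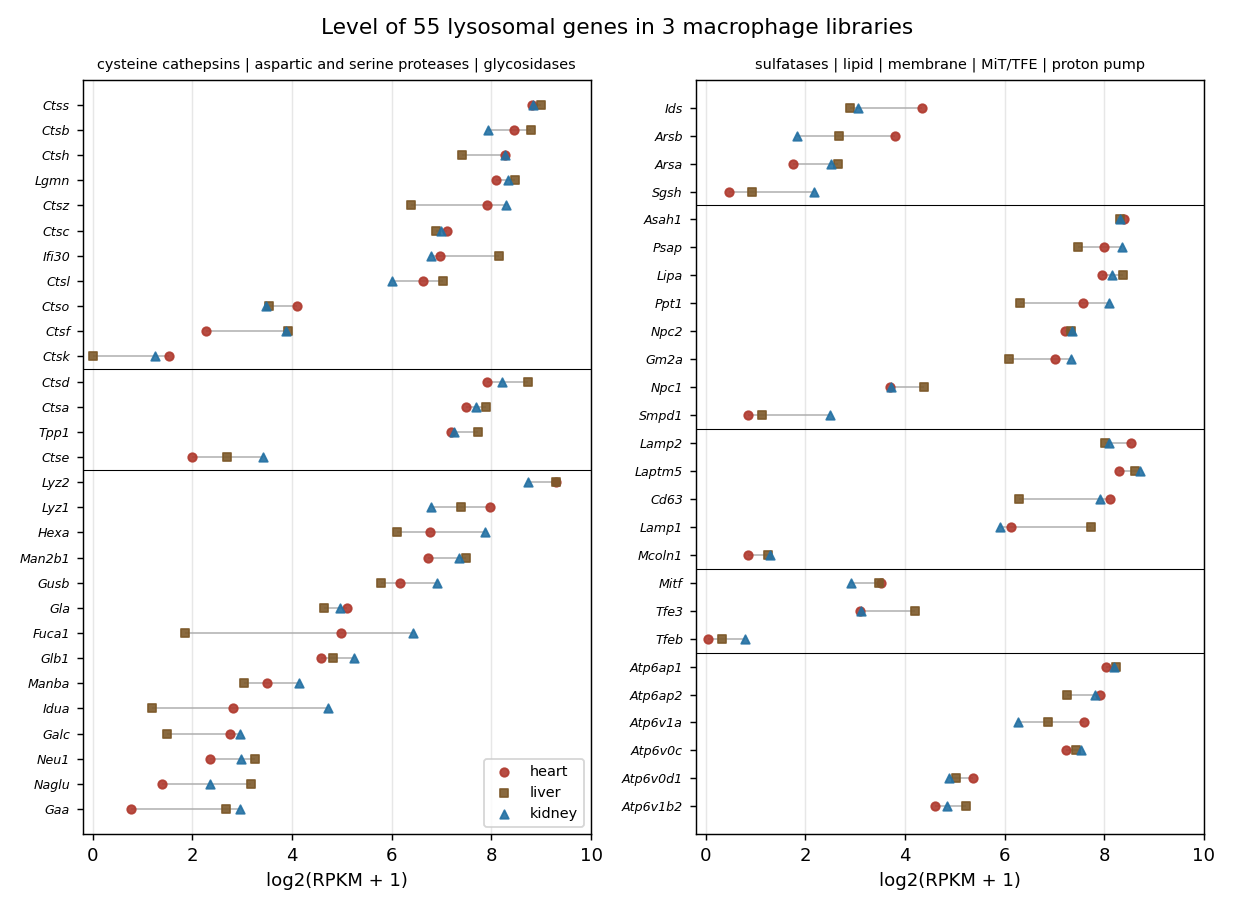
Levels of the 55 lysosomal genes, grouped by role and ordered by their level in the heart library, as log2(RPKM + 1) with 1 point per library and a line from the lowest to the highest. Abundant genes such as Ctss and Asah1 lie close together in the 3 libraries, while Fuca1, Idua, Gaa and Ctsk spread widely.

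Differences were taken on the scale of log2(RPKM + 1), and a gene counted as higher or lower past 1 log2 unit, which is 2-fold on that scale and more than 2-fold in RPKM for a low gene. Folds given below are ratios of RPKM with a 95% counting interval in parentheses, and intervals of RPKM are exact 95% Poisson intervals. Both cover counting error only, not the difference between animals or between amplifications. For the 31 genes with at least 1000 reads in each library, the interval stayed within 5.77% of the value.

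Of the 54 genes that passed the filter, 9 were at least 2-fold higher in heart than in liver macrophages and 6 were lower. That is 16.7% and 11.1%, where 17.9% and 24.9% of all genes compared were called. Heart against kidney gave 4 higher and 8 lower in the heart library, or 7.41% and 14.8% beside 10.5% and 22.9% of all genes. Kidney against liver gave 13 higher and 4 lower in the kidney library, or 24.1% and 7.41% beside 24.2% and 17.7%. The shares higher in heart than liver macrophages and in kidney than liver macrophages were thus near those of all genes, and the other shares were below them. Past 4-fold, 1 gene was higher and 0 were lower in heart than liver macrophages (5.33% and 7.13% of all genes). Heart against kidney had 0 higher and 1 lower (2.4% and 5.1%), and kidney against liver had 2 higher and 0 lower (7.57% and 5.1%). Heart minus liver had a median difference of -0.15 over the 54 genes and of -0.16 over all genes compared. Heart minus kidney had -0.20 beside -0.23, and kidney minus liver 0.01 beside 0.04. The 3 comparisons share libraries, so a gene that is low in the liver library counts in both comparisons with it.

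**Figure D2:**
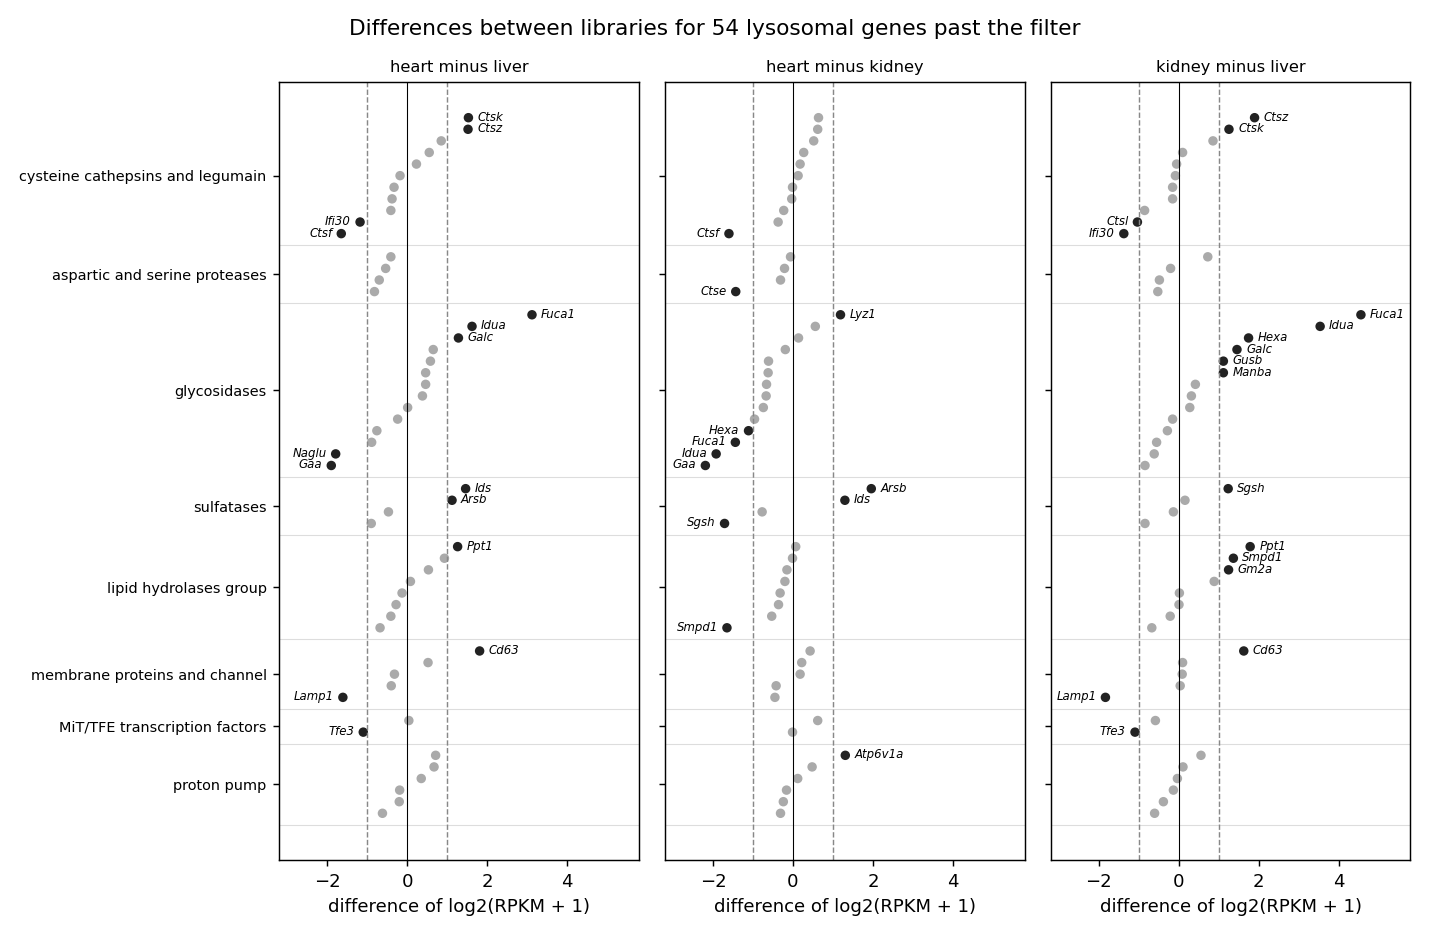
Differences of log2(RPKM + 1) between libraries for the 54 genes past the filter, by role, with 1 point per gene; dashed lines mark 1 log2 unit and dark points lie past it. Fuca1 and Idua lie farthest to the right for kidney minus liver, at 4.56 and 3.54.

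Among the cysteine proteases, Ctss, which encodes cathepsin S, the enzyme that trims the invariant chain of MHC class II, stood at the top in every library. Its level was 448 RPKM in heart, 507 in liver and 456 in kidney macrophages, which are within 1 log2 unit of each other. Ctsb (cathepsin B, a broad endopeptidase and carboxypeptidase) was at 351 RPKM in heart, 440.5 in liver and 244 in kidney macrophages, so the liver library was highest and the kidney library lowest without passing 2-fold. Other annotated genes cover 12.8% of its exon bases, with the largest overlap from Fdft1. Lgmn, the legumain that cuts after asparagine and processes cathepsins, was at 273 RPKM (heart), 356 (liver) and 321 (kidney). Ctsh, an aminopeptidase, was at 308 RPKM (heart), 169.8 (liver) and 309 (kidney), with equal levels in heart and kidney and a lower level in the liver library.

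Ctsz encodes cathepsin Z, a carboxypeptidase, and had the widest range among the cathepsins that exceeded 100 RPKM in some library. It was at 240.0 RPKM in heart, 82.9 in liver and 312 in kidney macrophages. The liver library was thus lowest, by 2.90-fold (2.75 to 3.05) against the heart and 3.76-fold (3.58 to 3.95) against the kidney library. Ctsl (cathepsin L, an endopeptidase) ran differently, at 98.03 RPKM in heart, 130.3 in liver and 63.4 in kidney macrophages, which is 2.06-fold (1.98 to 2.14) higher in liver than in kidney macrophages. With 25.8% of its exon bases shared with other annotated genes, and reads counted on both strands, its reads could not all be assigned to it. Ctsf, which encodes the cysteine protease cathepsin F, was at 3.85 RPKM in heart, 14.2 in liver and 13.7 in kidney macrophages, so the heart library was lower by 3.69-fold (2.99 to 4.59) against the liver and 3.57-fold (2.88 to 4.44) against the kidney library. Ctso was at 16.2 RPKM (heart), 10.7 (liver) and 10.1 (kidney) and was called in no comparison.

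Ctsk encodes cathepsin K, the collagen-degrading protease of osteoclasts that some fibroblasts also make. It had 43 reads in heart, 0 in liver and 34 in kidney macrophages, which is 1.89 RPKM in heart, 0 in liver and 1.39 in kidney macrophages. The 0 reads of the liver library allow up to 0.114 RPKM when 3 reads are taken as the limit, so Ctsk was at least 16.6-fold higher in heart and at least 12.2-fold higher in kidney than in liver macrophages. Of the other osteoclast-associated genes, Dcstamp was also at 0 in the liver library (11.2 RPKM in heart and 7.32 in kidney macrophages), while Acp5 was highest there. Fibroblast genes, at 151.1 RPKM in heart, 8.461 in liver and 0.775 in kidney macrophages as given above, were highest in the heart library, and their part in the level of Ctsk was not tested.

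Ifi30 encodes GILT, the thiol reductase that opens disulfide bonds of proteins on their way to MHC class II and is no protease. Its level was 125 RPKM in heart, 285 in liver and 109.7 in kidney macrophages. The liver library was higher by 2.28-fold (2.16 to 2.41) against the heart and 2.60-fold (2.45 to 2.75) against the kidney library. B cells express Ifi30 as well, and the B cell genes were likewise highest in the liver library, but their part in this difference was not tested.

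Ctsc encodes cathepsin C, the dipeptidyl peptidase that activates the granule proteases of neutrophils and other cells. Its longest transcript, of 7457 bp at chr7:88278085-88315861 on the plus strand of mm10, was at 138 RPKM in heart, 117 in liver and 126 in kidney macrophages, which is nearly level. A shorter RefSeq transcript with the same start, of 4025 bp and ending at 88292159, was at 300.6 RPKM in heart, 108.7 in liver and 229.5 in kidney macrophages. On log2(RPKM + 1) the short form was higher than in liver by 1.46 in heart and by 1.07 in kidney, where the long form was higher by 0.23 and 0.10. The heart library had 17495 reads on the short form and 14874 on the long form, while the liver library had 7328 and 14622. Reads on shared exons count for both forms, so the contrast between them rests on the exon bases they do not share. The short form lies outside the rule by which the 55 genes were read and was looked at after the values were known.

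The 4 aspartic and serine proteases gave 0 calls between heart and liver, where all genes gave 17.9% higher and 24.9% lower. Kidney against liver gave 0 as well, where all genes gave 24.2% and 17.7%. In heart against kidney macrophages 0 were higher and 1 was lower (0% and 25%, beside 10.5% and 22.9% of all genes). Ctsd, the aspartic protease cathepsin D, was at 238 RPKM in heart, 423 in liver and 295 in kidney macrophages, highest in the liver library. Of its exon bases, 37.1% are shared with other annotated genes, and the largest overlap is with a gene of the same strand. Ctsa, a serine carboxypeptidase that also protects the enzymes encoded by Glb1 and Neu1, was at 179 RPKM (heart), 237 (liver) and 207 (kidney). Other annotated genes cover 17.4% of its exon bases, with the largest overlap from Pltp. Tpp1, which cleaves tripeptides from protein ends and is lost in a childhood ceroid lipofuscinosis, was at 145 RPKM (heart), 211 (liver) and 151 (kidney). All 4 genes of this group were lower in heart than in liver macrophages, with differences from -0.82 to -0.41 log2 units, none of them past the threshold. Ctse (cathepsin E, an aspartic protease of endosomes) was low, at 2.98 RPKM in heart, 5.47 in liver and 9.70 in kidney macrophages, and was 3.25-fold (2.57 to 4.15) higher in kidney than in heart macrophages.

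Glycosidases, the enzymes that take sugars off glycoproteins, glycolipids and glycosaminoglycans, held the widest differences of the 55 genes. Of 14, 3 were higher and 2 lower in heart than liver macrophages (21.4% and 14.3%, where all genes gave 17.9% and 24.9%). In heart against kidney macrophages 1 was higher and 4 were lower (7.14% and 28.6%, where all genes gave 10.5% and 22.9%), and in kidney against liver macrophages 6 were higher and 0 lower (42.9% and 0%, where all genes gave 24.2% and 17.7%). Fuca1 encodes the fucosidase that removes fucose from glycans, at chr4:135920726-135940300 on the plus strand of mm10. It was at 30.7 RPKM in heart, 2.64 in liver and 85.1 in kidney macrophages, from 1117, 111 and 3326 reads. The kidney library was 32.3-fold (26.7 to 39.3) above the liver library and 2.77-fold (2.59 to 2.97) above the heart library, and the heart library 11.7-fold (9.58 to 14.3) above the liver library. The exons of Fuca1 overlap no other annotated gene.

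Idua encodes the iduronidase that starts the removal of iduronic acid from heparan and dermatan sulfate, at chr5:108660331-108685446. Its levels had the same order, at 6.03 RPKM in heart, 1.29 in liver and 25.5 in kidney macrophages. The kidney library was 19.9-fold (16.1 to 24.7) above the liver and 4.23-fold (3.79 to 4.74) above the heart library, and the heart library 4.69-fold (3.74 to 5.94) above the liver library. Other annotated genes cover 6.3% of the exon bases of Idua, with the largest overlap from Slc26a1, a sulfate transporter gene of the opposite strand. Reads on these shared bases are counted with Idua. Nephron genes were highest in the kidney library too, and their part in the values of Fuca1 and Idua was not tested.

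Further glycosidases were lowest in the liver library. Hexa, the alpha subunit of the hexosaminidase that degrades GM2 ganglioside, was at 108 RPKM in heart, 68.3 in liver and 233 in kidney macrophages, which put the kidney library 3.40-fold (3.24 to 3.58) above the liver and 2.16-fold (2.07 to 2.26) above the heart library. Galc, which degrades galactosylceramide, was at 5.79 RPKM in heart, 1.80 in liver and 6.74 in kidney macrophages, with the liver library below the kidney by 3.74-fold (3.03 to 4.64) and below the heart by 3.21-fold (2.59 to 4.01). Gusb, the glucuronidase, was at 70.7 RPKM (heart), 54.2 (liver) and 119 (kidney), and was 2.20-fold (2.09 to 2.31) higher in kidney than liver macrophages. Manba, the beta-mannosidase, was at 10.3 RPKM (heart), 7.19 (liver) and 16.8 (kidney), and differed in the same way by 2.33-fold (2.08 to 2.61). Gla, the galactosidase of globotriaosylceramide, was at 33.3 RPKM (heart), 23.9 (liver) and 30.1 (kidney) and was called in no comparison.

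Other glycosidases were lowest in the heart library. Gaa encodes the acid glucosidase that degrades glycogen in lysosomes, at chr11:119268008-119285698 on the plus strand of mm10. It had 38 reads in heart, 336 in liver and 392 in kidney macrophages, which is 0.704 RPKM (0.498 to 0.966), 5.37 RPKM (4.82 to 5.98) and 6.75 RPKM (6.10 to 7.45). The heart library was lower by 7.63-fold (5.45 to 10.98) against the liver and 9.59-fold (6.86 to 13.8) against the kidney library, and its exons overlap no other annotated gene. Naglu, the glucosaminidase of heparan sulfate breakdown, was at 1.62 RPKM in heart, 8.08 in liver and 4.09 in kidney macrophages, and was 4.97-fold (3.75 to 6.69) higher in liver than heart macrophages. Neu1, the lysosomal sialidase, was at 4.12 RPKM (heart), 8.50 (liver) and 6.85 (kidney), Glb1, the beta-galactosidase, at 22.97 RPKM (heart), 27.4 (liver) and 37.1 (kidney), and Man2b1, the alpha-mannosidase, at 105 RPKM (heart), 179 (liver) and 161 (kidney). These last 3 genes were lowest in the heart library without passing the threshold of 1 log2 unit.

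The lysozymes Lyz1 and Lyz2 cleave the peptidoglycan of bacterial walls and lie side by side on chromosome 10. Their coding sequences, taken from GENCODE M21 (GRCm38, the same assembly as mm10), are 447 bp long and identical at 425 positions (95.1%). The first 120 coding bases of each are printed to show where they differ, with 11 of the 22 positions that differ over the whole length in capitals, so this stretch is less alike than the rest.
Lyz1: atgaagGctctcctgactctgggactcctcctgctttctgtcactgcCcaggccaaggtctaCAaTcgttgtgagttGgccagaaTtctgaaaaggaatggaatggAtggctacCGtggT
Lyz2: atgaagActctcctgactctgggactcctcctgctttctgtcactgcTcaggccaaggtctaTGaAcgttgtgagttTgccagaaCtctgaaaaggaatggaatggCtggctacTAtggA
Of 398 stretches of 50 coding bases in Lyz1, 80 were present without a mismatch in Lyz2, and the longest identical run was 118 bases. How reads that fit both genes were counted is not given in the sources used here, so the level of each is uncertain. As deposited, Lyz2 was at 630.5 RPKM in heart, 626 in liver and 428 in kidney macrophages, and Lyz1 at 251 RPKM in heart, 168 in liver and 109.8 in kidney macrophages. Both were lowest in the kidney library, and Lyz1 was 2.29-fold (2.17 to 2.41) higher in heart than in kidney macrophages.

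Sulfatases take sulfate groups off glycosaminoglycans and sulfolipids, and all 4 read here were low, at 19.4 RPKM or less in every library. Their orders across the libraries differed. Ids, the iduronate sulfatase that acts on heparan and dermatan sulfate ahead of the enzyme encoded by Idua, was at 19.4 RPKM in heart, 6.42 in liver and 7.30 in kidney macrophages. The heart library was highest, 3.02-fold (2.73 to 3.35) above the liver and 2.66-fold (2.41 to 2.94) above the kidney library, while for Idua the kidney library was highest. Arsb, the sulfatase of dermatan and chondroitin sulfate, was at 12.9 RPKM in heart, 5.40 in liver and 2.57 in kidney macrophages, so that the heart library was 2.39-fold (2.10 to 2.72) above the liver and 5.03-fold (4.23 to 6.001) above the kidney library. Other annotated genes cover 39.4% of its exon bases. Fibroblast genes were highest in the heart library as well, and their part in the values of Ids and Arsb was not tested.

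Sgsh, the sulfamidase of heparan sulfate, had 24 reads in heart, 66 in liver and 237 in kidney macrophages. That is 0.385 RPKM (0.247 to 0.572), 0.914 RPKM (0.707 to 1.16) and 3.53 RPKM (3.10 to 4.01). The kidney library was 9.18-fold (6.02 to 14.6) above the heart and 3.87-fold (2.93 to 5.16) above the liver library. Sgsh passed the filter through the kidney library alone, so a difference was built into its selection. Other annotated genes share 22.1% of its exon bases, with the largest overlap from Card14. Arsa, which removes sulfate from sulfatide, was at 2.37 RPKM (heart), 5.27 (liver) and 4.73 (kidney), lowest in the heart library without passing the threshold, with 18.8% of its exon bases shared.

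Of 8 genes for enzymes and helper proteins of lipid breakdown, 1 was higher and 0 were lower in heart than liver macrophages (12.5% and 0%, beside 17.9% and 24.9% of all genes). The heart library had 0 higher and 1 lower than the kidney library (0% and 12.5%, beside 10.5% and 22.9%), and the kidney library 3 higher and 0 lower than the liver library (37.5% and 0%, beside 24.2% and 17.7%). Asah1, the acid ceramidase, was at 335 RPKM (heart), 317 (liver) and 318 (kidney), the narrowest spread of those of the 55 that exceeded 100 RPKM in every library. Lipa, the acid lipase that frees cholesterol and fatty acids from lipoproteins, was at 248 RPKM (heart), 329 (liver) and 285 (kidney). Npc2, which hands cholesterol to the exporter NPC1, was at 147 RPKM (heart), 160.4 (liver) and 163 (kidney), and Npc1 itself at 12.02 RPKM (heart), 19.9 (liver) and 12.1 (kidney). None of these 4 genes was called in any comparison.

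Proteins that present sphingolipids to their enzymes followed another order. Psap, the precursor of the saposins, was at 255 RPKM in heart, 176 in liver and 326 in kidney macrophages, and Gm2a, the activator that lifts GM2 ganglioside to hexosaminidase A, at 128 RPKM in heart, 66.8 in liver and 160.5 in kidney macrophages. For both the kidney library was highest and the liver library lowest, and Gm2a was 2.40-fold (2.32 to 2.49) higher in kidney than liver macrophages. Ppt1 encodes the thioesterase that removes palmitate from proteins, and was at 189 RPKM in heart, 78.4 in liver and 274 in kidney macrophages. The liver library was lowest, by 2.41-fold (2.31 to 2.51) against the heart and 3.49-fold (3.36 to 3.63) against the kidney library. Smpd1, the acid sphingomyelinase, was low, with 28 reads in heart, 48 in liver and 174 in kidney macrophages, or 0.805, 1.19 and 4.65 RPKM in heart, liver and kidney. The kidney library was 5.78-fold (3.86 to 8.95) above the heart and 3.90-fold (2.82 to 5.49) above the liver library.

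Lamp1 and Lamp2 encode the related glycoproteins that line the lysosomal membrane. Lamp1 was at 68.7 RPKM in heart, 212 in liver and 59.03 in kidney macrophages, so the liver library was higher by 3.08-fold (2.94 to 3.23) against the heart and 3.59-fold (3.42 to 3.77) against the kidney library. Other annotated genes cover 9.3% of its exon bases, with the largest overlap from Grtp1. Hepatocyte and endothelial genes, whose part was not tested, were highest in the liver library too. Lamp2, whose protein also takes part in autophagy, was at 369 RPKM in heart, 257 in liver and 273 in kidney macrophages, highest in the heart library and within 2-fold throughout. In the RefSeq promoter table (GRCm38.p6), the 73 bases before the start of Lamp1, chr8:13159088-13159160 on the plus strand, hold the motif CACGTG 4 times, shown here in capitals because no other of the 49 genes with a window had as many. The deposited transcript model begins at 13159135, inside this stretch.
Lamp1: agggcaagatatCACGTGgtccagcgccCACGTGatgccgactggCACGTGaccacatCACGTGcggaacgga

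Cd63, a tetraspanin of late endosomes and exosomes, ran against Lamp1. It was at 275 RPKM in heart, 77.6 in liver and 242 in kidney macrophages, so the liver library was lower by 3.54-fold (3.32 to 3.77) against the heart and 3.11-fold (2.92 to 3.32) against the kidney library. Laptm5, a lysosomal membrane protein of blood cells, was at 313 RPKM (heart), 391 (liver) and 418 (kidney). Mcoln1, the calcium channel mucolipin 1, was low, with 23 reads in heart, 46 in liver and 45 in kidney macrophages. That is 0.801, 1.38 and 1.46 RPKM in heart, liver and kidney, and no difference of it reached the threshold.

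The MiT/TFE transcription factors were expressed at low levels. Tfe3 was at 7.61 RPKM in heart, 17.4 in liver and 7.64 in kidney macrophages, 2.29-fold (2.03 to 2.58) higher in liver than heart macrophages and 2.28-fold (2.03 to 2.57) higher than in kidney macrophages. On the log2 scale its difference between heart and liver was -1.10, and it fell short of the threshold when values were scaled as TPM (transcript abundance normalised for length) or by the median ratio. Mitf was at 10.5 RPKM (heart), 10.2 (liver) and 6.51 (kidney) and was not called. Tfeb had 1 read in heart, 10 in liver and 26 in kidney macrophages, or 0.03 RPKM (0.000754 to 0.166), 0.257 RPKM (0.123 to 0.473) and 0.720 RPKM (0.471 to 1.06), and was left out of the comparisons. Tfec, the relative expressed in macrophages and osteoclasts and not among the 55 genes, was at 26.5 RPKM (heart), 22.3 (liver) and 3.996 (kidney), lowest in the kidney library by 6.64-fold (5.42 to 8.20) against the heart library.

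MiT/TFE factors bind E-boxes of the form CACGTG, and the longer TCACGTGA is the centre of the element named CLEAR. Both motifs read the same on either strand, and every TCACGTGA holds a CACGTG, so the counts below are nested. Promoter windows from 250 bases before to 50 after the start were taken from RefSeq (GRCm38.p6), which matched 49 of the 55 genes by symbol with 59 windows. CACGTG was present in 16 of the 59 windows (27.1%) and in 2349 of 32851 windows of all genes (7.15%). TCACGTGA was present in 7 windows (11.9%), 1 each of 7 genes, and in 320 of all windows (0.974%). A match describes the letters in the window and says nothing of binding in these cells. The 30 bases around the match are printed for the genes with TCACGTGA, in capitals, since they belong to the roles described here from cathepsins to the pump. They are on the strand of the gene, and Ctsa and Gla each have a further match that is not shown.
Atp6v0d1 (chr8:105566050-105566079, minus strand): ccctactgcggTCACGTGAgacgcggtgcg
Atp6v1a (chr16:44139373-44139402, minus strand): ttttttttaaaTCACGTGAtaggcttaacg
Ctsa (chr2:164833749-164833778, plus strand): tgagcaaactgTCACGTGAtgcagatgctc
Ctsd (chr7:142387908-142387937, minus strand): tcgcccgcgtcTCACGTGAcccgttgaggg
Gla (chrX:134601182-134601211, minus strand): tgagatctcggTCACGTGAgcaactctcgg
Ifi30 (chr8:70766842-70766871, minus strand): atccaaaaactTCACGTGAccagacatgct
Mcoln1 (chr8:3500462-3500491, plus strand): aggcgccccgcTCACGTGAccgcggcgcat

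The differences of the 7 genes with TCACGTGA lay between -1.18 and 0.71 for heart minus liver and between -1.37 and 0.32 for kidney minus liver, with 1 gene, Ifi30, called lower than liver macrophages in both. For heart minus kidney they lay between -0.45 and 1.31, with 1 gene, Atp6v1a, called higher. The 16 genes with CACGTG had a median of -0.44 for heart minus liver, with 0 higher and 5 lower, and the 32 genes without either motif that were compared had a median of 0.49, with 9 higher and 1 lower (all genes, 17.9% higher and 24.9% lower). For heart minus kidney the medians were -0.27, with 1 higher and 3 lower, and -0.18, with 3 higher and 4 lower (all genes, 10.5% and 22.9%). For kidney minus liver they were -0.14, with 1 higher and 3 lower, and 0.11, with 12 higher and 1 lower (all genes, 24.2% and 17.7%). The 5 lower in heart than liver macrophages were Ctsf, Gaa, Naglu, Lamp1 and Ifi30. These are descriptions of small groups formed from the letters of the promoters, and they were not tested.

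Of the 6 proton pump genes, 1 was higher and 0 were lower in heart than kidney macrophages (16.7% and 0%, beside 10.5% and 22.9% of all genes). Heart against liver gave 0 calls, where all genes gave 17.9% higher and 24.9% lower. Kidney against liver gave 0 as well, where all genes gave 24.2% and 17.7%. Atp6v1a, the catalytic A subunit that hydrolyses ATP, was at 191 RPKM in heart, 117 in liver and 76.6 in kidney macrophages, and was 2.49-fold (2.41 to 2.58) higher in heart than in kidney macrophages. Atp6v1b2, the B subunit that pairs with it, was at 23.1 RPKM (heart), 36.2 (liver) and 27.6 (kidney), with the liver library highest. Atp6v0c, the ring protein that carries the protons through the membrane, was at 149.5 RPKM (heart), 171 (liver) and 185 (kidney), and Atp6v0d1, which joins the ring to the stalk, at 40.3 RPKM (heart), 31.4 (liver) and 28.6 (kidney). The accessory proteins Atp6ap1 and Atp6ap2, which help to assemble the pump, were at 262 RPKM (heart), 301 (liver) and 293 (kidney) and at 242 RPKM (heart), 151 (liver) and 223 (kidney). Each of the last 5 differed by less than 1 log2 unit in every comparison.

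A further 19 pump genes were read as the rest of the complex, and 16 passed the filter. Heart against liver gave 3 higher and 2 lower of these 16 (18.8% and 12.5%; all genes, 17.9% and 24.9%). Heart against kidney gave 1 higher and 6 lower (6.25% and 37.5%; all genes, 10.5% and 22.9%), and kidney against liver 7 higher and 0 lower (43.8% and 0%; all genes, 24.2% and 17.7%). Of the kidney calls, 3 belonged to genes that passed the filter through the kidney library alone, Atp6v1g3, Atp6v1b1 and Atp6v0a4, and so had to be higher there. Atp6v0e2 passed through the heart library alone. Atp6v0a1, a membrane a subunit, was at 6.44 RPKM in heart, 1.33 in liver and 20.1 in kidney macrophages. Atp6v0d2, a d subunit of osteoclasts and some macrophages, was at 1.97 RPKM (heart), 2.85 (liver) and 10.7 (kidney). Atp6v0e2 was at 3.06 RPKM in the heart library, from 81 reads, and at 0 in both others.

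Some of the calls in the kidney library belonged to subunits of intercalated cells of the collecting duct. Atp6v1g3 was at 0 reads in heart and liver libraries and at 26.7 RPKM in the kidney library, from 782 reads. Atp6v1b1 and Atp6v0a4 were likewise at 0 in heart and liver, and at 1.99 and 1.26 RPKM in the kidney library. All 8 intercalated cell markers, which include these 3 subunits, were at 0 in heart and liver libraries, and 7 of 8 reached 1 RPKM in the kidney library, where they summed to 40.3 RPKM. Slc4a9, an anion exchanger of intercalated cells that is no part of the pump, was at 6.23 RPKM there, and their regulator Foxi1 at 1.10 RPKM. Their part in the levels of the shared subunits was not tested.

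**Figure D3:**
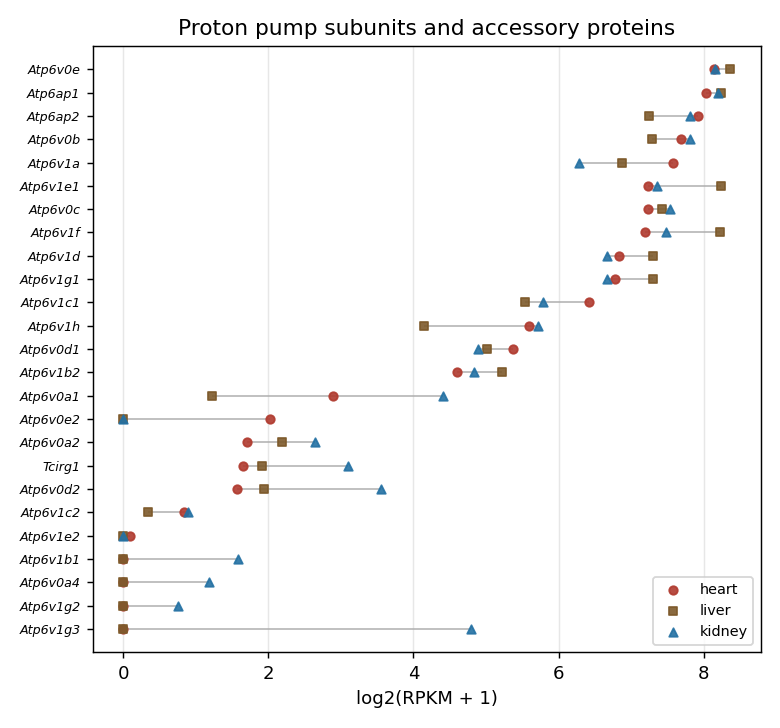
Levels of the 25 genes of the proton pump, 6 of them among the 55 and 19 others, as log2(RPKM + 1) with 1 point per library. Atp6v1g3, Atp6v1b1 and Atp6v0a4 are at 0 in heart and liver and above 0 in the kidney library.

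Other genes of the lysosome, 114 in 6 lists with 96 past the filter, were read beside the 55. These lists, too, were chosen with earlier results of these data known. Over these 96, heart against liver gave 8 higher and 27 lower (8.33% and 28.1%, beside 17.9% and 24.9% of all genes), heart against kidney 9 and 28 (9.38% and 29.2%, beside 10.5% and 22.9%), and kidney against liver 22 and 21 (22.9% and 21.9%, beside 24.2% and 17.7%). The list of 28 further hydrolases and activators was lower in heart than liver macrophages for 12 of the 23 that passed, and higher for 0 (52.2% and 0%, where 24.9% and 17.9% of all genes were), with a median of -1.06 log2 units. For the 54 genes above the same median was -0.15, and the background over all genes was -0.16. Heart against kidney gave 1 higher and 9 lower in this list (4.35% and 39.1%, beside 10.5% and 22.9%), and kidney against liver 3 higher and 8 lower (13% and 34.8%, beside 24.2% and 17.7%).

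Acp5, the tartrate-resistant acid phosphatase, was at 11.1 RPKM in heart, 254 in liver and 16.6 in kidney macrophages, a 22.9-fold (20.01 to 26.2) higher level in liver than in heart macrophages. Pld3, an exonuclease that degrades nucleic acids in the lysosome, was at 10.9 RPKM in heart, 217 in liver and 79.9 in kidney macrophages, 19.97-fold (17.9 to 22.3) higher in liver than in heart macrophages. Creg1, a lysosomal glycoprotein, was at 23.4 RPKM in heart, 136 in liver and 22.4 in kidney macrophages, with the liver library highest. The hepatocyte and endothelial genes were highest in the liver library too, and their part in these values was not tested.

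**Figure D4:**
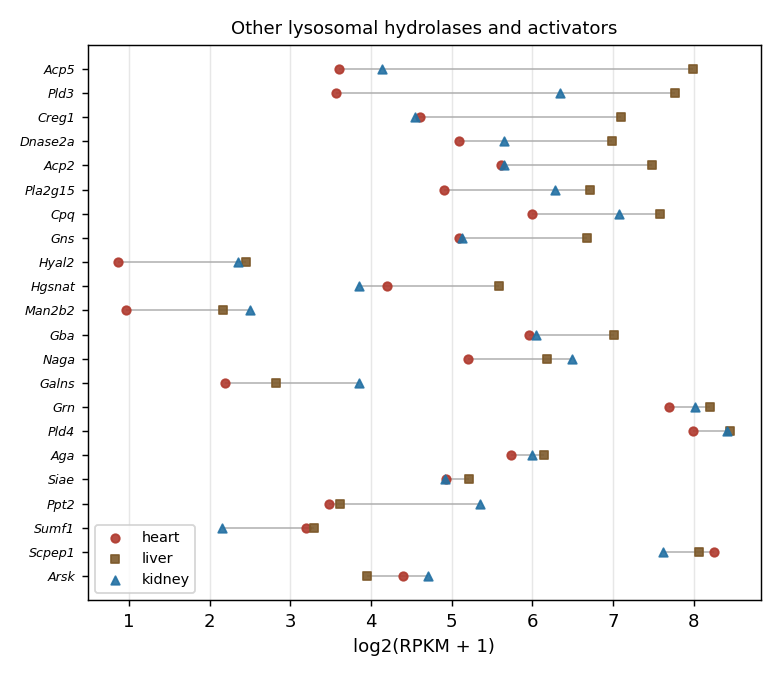
Levels of 22 of the 23 further lysosomal hydrolases and activators past the filter, as log2(RPKM + 1) with 1 point per library, ordered by the difference between the heart and the liver library. Acp5, Pld3 and Creg1 at the top are far higher in liver than in heart macrophages.

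Of 24 further membrane proteins and transporters that passed, 1 was higher and 6 were lower in heart than liver macrophages (4.17% and 25%, all genes 17.9% and 24.9%). The comparison of heart with kidney had 2 higher and 5 lower (8.33% and 20.8%, all genes 10.5% and 22.9%), and that of kidney with liver 5 higher and 4 lower (20.8% and 16.7%, all genes 24.2% and 17.7%). The relatives of mucolipin 1 split by library. Mcoln2 was at 1.05 RPKM in heart, 23.4 in liver and 0 in kidney macrophages. Mcoln3 was at 0 in heart and liver libraries and at 4.85 RPKM in the kidney library. Since Mcoln3 passed the filter through the kidney library alone, a difference was built into its selection. Clcn7, the chloride and proton exchanger that supports acidification, was at 1.83 RPKM in heart, 12.8 in liver and 1.29 in kidney macrophages, 6.97-fold (5.70 to 8.61) higher in liver than in heart macrophages. Tmem192, a protein of the lysosomal membrane, was at 1.30 RPKM (heart), 4.54 (liver) and 9.38 (kidney), highest in the kidney library.

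Genes that sort lysosomal enzymes gave 1 higher and 1 lower of 13 between heart and liver (7.69% each, where all genes had 17.9% and 24.9%). They gave 0 and 1 between heart and kidney (0% and 7.69%, where all genes had 10.5% and 22.9%), and 3 and 2 between kidney and liver (23.1% and 15.4%, where all genes had 24.2% and 17.7%). Igf2r, the large mannose 6-phosphate receptor, was at 0.0550 RPKM (heart), 2.50 (liver) and 0 (kidney), so reads came mainly from the liver library. Since Igf2r passed the filter through that library alone, a difference was built into its selection. Gnptg, a subunit of the enzyme that builds the mannose 6-phosphate tag, was at 15.6 RPKM (heart), 9.20 (liver) and 27.5 (kidney), and Gga3, an adaptor of the receptors, at 4.08 RPKM (heart), 7.70 (liver) and 13.1 (kidney), both highest in the kidney library. Among 5 cathepsin inhibitors that passed, 0 were higher and 1 was lower in heart than liver macrophages (0% and 20%, beside 17.9% and 24.9% of all genes). For heart against kidney 2 were higher and 1 lower (40% and 20%, beside 10.5% and 22.9%), and for kidney against liver 0 were higher and 2 lower (0% and 40%, beside 24.2% and 17.7%). Cst7, the inhibitor cystatin F, was at 0 in heart, 5.55 RPKM in liver and 1.25 in kidney macrophages, and Serpinb6a, a serpin of serine proteases, was at 184 RPKM (heart), 257 (liver) and 62.2 (kidney).

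A list around the MiT/TFE factors had 15 genes past the filter. It holds the related factor gene Tfec, the calcineurin gene Ppp3cb, the gene Gpnmb, and genes of mTORC1, the Rag GTPases, folliculin and its partners and Ragulator. It gave 3 higher and 5 lower between heart and liver (20% and 33.3%, against 17.9% and 24.9% of all genes), 3 and 6 between heart and kidney (20% and 40%, against 10.5% and 22.9%), and 4 and 5 between kidney and liver (26.7% and 33.3%, against 24.2% and 17.7%). The Ragulator complex is a scaffold on the lysosomal surface, and its 5 genes, Lamtor1 to Lamtor5, were lower in heart than liver macrophages, with differences from -2.40 to -1.09 log2 units. This group of 5 was singled out after its values were seen. Lamtor1, its membrane anchor, was at 17.2 RPKM in heart, 95.3 in liver and 40.1 in kidney macrophages, and Lamtor2 at 53.6 RPKM in heart, 265 in liver and 123 in kidney macrophages. Rraga, a GTPase that Ragulator anchors, had another order, at 16.9 RPKM in heart, 4.05 in liver and 34.6 in kidney macrophages, lowest in the liver library.

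Read density bears on the abundant genes, since the file header names an option that limits tags to 3 per position. In the heart library 22 of the 55 genes had more than 2 reads per bp of exon, as had 22 in liver and 23 in kidney macrophages. The densest was Lyz2 in the liver library with 10.5 reads per bp. That is more than 3 tags per position on both strands would give, so how the option acted on these values is not known. Of the 54 genes past the filter, 28 exceeded 2 reads per bp in some library. Their median absolute difference was 0.54 log2 units between heart and liver, 0.31 between heart and kidney and 0.55 between kidney and liver. For the 26 genes at or below this density it was 0.69, 0.66 and 0.62. All genes showed the same order, with 0.69, 0.42 and 0.62 above 2 reads per bp (942 genes) and 0.85, 0.68 and 0.84 at or below it (10540 genes). Whether the limit on tags narrowed the differences of dense genes was not tested.

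**Figure D5:**
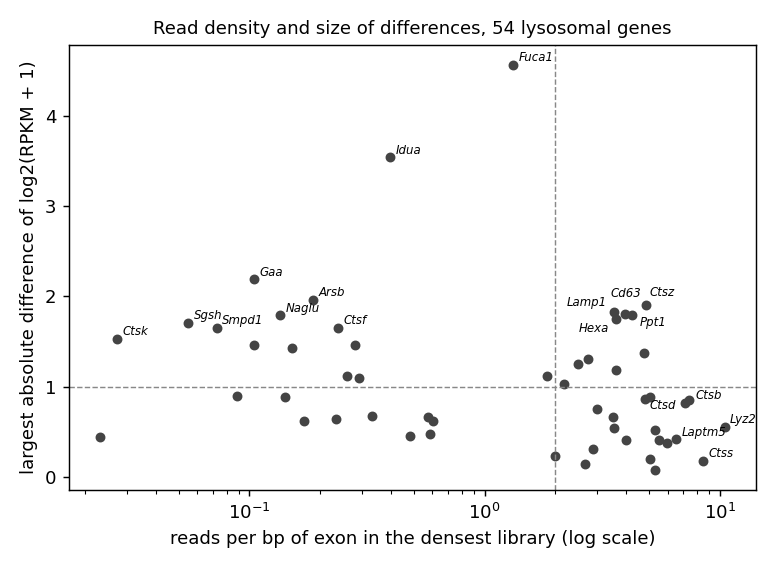
Largest absolute difference of log2(RPKM + 1) among the 3 comparisons against the reads per bp of exon in the densest library (log scale), with 1 point per gene for the 54 genes past the filter; dashed lines mark 2 reads per bp and 1 log2 unit. Ctss and Lyz2 on the right differ by less than 1 log2 unit, and Fuca1, Idua and Gaa lie to the left of 2 reads per bp, while Ctsl, Ctsz, Ifi30, Hexa, Lyz1, Gm2a, Ppt1, Lamp1, Cd63 and Atp6v1a lie above 1 log2 unit to the right of it.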

How the data were processed

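RNA of sorted macrophages was sequenced in 1 library per tissue, and groups follow the sample titles. The authors deposited RPKM for 34711 RefSeq transcripts. Per the file headers, HOMER's analyzeRepeats.pl made them over exons, on both strands, scaled to 1000000 per library and with the option -pc 3, a limit of 3 tags per position. The column names say FPKM, while the command in the header asks for RPKM. The submitters' processing notes name CASAVA, STAR and mm10 without versions.

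From the deposited RPKM and the exon lengths, whole reads were recovered: all low values checked, 14395, 10952 and 13147 of them in the heart, liver and kidney libraries, lay within 0.1 of a whole read. The longest coding transcript per symbol was kept, which left 8751978, 10373696 and 9485368 reads. Genes that reached 1 RPKM in some library were compared on log2(RPKM + 1), with a pseudocount of 1, and 1 log2 unit or more was called. With 1 library per tissue no test was possible, and no p-values are given. Intervals are exact 95% Poisson intervals of reads and, for ratios, Clopper-Pearson intervals of the share of reads, and a count of 0 was set to 3 reads for a lower bound. The steps were tested on simulated data. Shared exon bases were taken from GENCODE M21. Python 3.11.15, numpy 2.4.6, pandas 2.3.3 and scipy 1.17.1 were used. The 55 genes and the other lists were chosen with earlier results of these data known. Any of the 55 could be named, and of each other list the 4 genes with the largest differences past 1 log2 unit; 1 gene so chosen is not reported here. The alternatives tried were other pseudocounts, filters, scalings and transcripts, leaving out dense or overlapping genes, and a 4-fold threshold.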

Additional observations from a re-analysis of the deposited data

How the results depend on the processing

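No paired analysis was possible because there was 1 library per tissue, and for the same reason no library could be left out. Of the 44 called differences of the 54 genes, none changed sign under any alternative run. With a pseudocount of 5, 18 fell under the threshold, which leaves 5 genes higher and 3 lower in the heart than the liver library, 5 lower in the heart than the kidney library, and 8 higher and 2 lower in the kidney than the liver library. A larger pseudocount shrinks differences of low genes by construction. The share of all genes called with a pseudocount of 5 is not given here, so these counts stand without a background. Scaling to TPM dropped 2 calls (Tfe3 for heart against liver and Ctsl for kidney against liver), and scaling by the median ratio dropped 3 (Ifi30 and Tfe3 for heart against liver and Hexa for heart against kidney). Without genes over 2 reads per bp of exon, 26 genes remained. Of these, 2 were higher in the heart than the kidney library, and 8 were higher and 1 lower in the kidney than the liver library. Counting both directions, 10 of the 26 were called between heart and liver, 9 between heart and kidney, and 9 between kidney and liver. Among all 10540 genes at or below this density, the called shares were 43.4%, 34.4% and 43% in the same order. A threshold of 2 log2 units left 1 higher and 0 lower for heart against liver, 0 and 1 for heart against kidney, and 2 and 0 for kidney against liver. The medians lay near 0 and changed sign in some settings: for heart minus liver to 0.03 with TPM, 0.10 with the median ratio and 0.04 without genes that share over 10% of their exon bases, a setting added after seeing the data. For heart minus kidney the median became 0.08 with the median ratio, and for kidney minus liver -0.02 with the median ratio and -0.04 with a filter of 5 RPKM. Median ratio scaling moved the median of all genes from -0.16 to 0.00 for heart minus liver and from -0.23 to -0.01 for heart minus kidney. Depth limits Tfeb, Mcoln1, Ctsk, Gaa, Sgsh and Smpd1, with fewer than 50 reads in at least 1 library.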
